A study of Saccharomyces cerevisiae with 9 samples.

Results

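RNA of the Saccharomyces cerevisiae strain lacking PAH1 (pah1Δ) was set directly against that of the strain lacking DGK1 (dgk1Δ), with 3 libraries each. These 6 of the 9 libraries of the series made up the comparison. The 3 wild-type (WT) libraries were left out of the main test, though an alternative fit of the same comparison held all 9 libraries. WT is otherwise given as values only, to show on which side of WT a difference lay. All 3 genotypes shared the prototrophic CEN.PK background and grew to log phase in minimal synthetic medium with 2% glucose. The labels name no further allele, and they do not say how each deletion was made, whether a strain was 1 clone, or whether replicates 1 to 3 came from separate cultures. The p-values therefore measure the spread between these libraries, which may be technical. Of 7122 genes in the count table, 6123 passed the filter on low counts. In all 3 dgk1Δ libraries, RNA was raised as a block over a segment of chromosome III and one of chromosome IX, so the 103 tested genes there were kept apart. The results below concern the other 6020 tested genes, and 984 further genes outside the segments were not tested. Effects of losing DGK1 and of the 2 raised segments cannot be told apart anywhere in this comparison.

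As background, phosphatidate is the branch point of glycerolipid synthesis in yeast. Pah1 removes its phosphate and gives diacylglycerol, which feeds storage lipid and, with ethanolamine or choline, membrane phospholipid. Dgk1, a kinase that uses CTP, runs the opposite reaction. Phosphatidate in the endoplasmic reticulum holds the repressor Opi1 outside the nucleus, and the activator pair Ino2 and Ino4 then drives genes whose promoters carry the inositol-responsive element, INO1 the best known among them. The comparison asks how RNA levels differ between cells that lack enzymes working in opposite directions on this pool.

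Both deletions were as labelled. PAH1 had 0 counts in each pah1Δ library, against 507, 722 and 525 counts in dgk1Δ. It was at least 183-fold lower in pah1Δ, taking a floor of 3 counts per library. DGK1 had 1267, 1038 and 1110 counts in pah1Δ, against 1, 2 and 1 in dgk1Δ, a ratio of 910 (exact 95% interval 355 to 3343, counting error only). Library totals ran from 9349432 to 12795803 counts. Among these 6 libraries, pah1Δ replicate 2 differed most from its partners (chi-square over genes, divided by its degrees of freedom, 13.2 and 24.6, with 6.06 between pah1Δ replicates 1 and 3 and 5.06 to 7.20 among dgk1Δ libraries). The deviations of the libraries from their strain's mean followed gene length (Spearman correlation across 5329 genes 0.328, -0.680 and 0.638 for pah1Δ replicates 1 to 3, and -0.136, 0.536 and -0.429 for dgk1Δ). Markers of the mating types, which tell apart the cells a yeast culture can hold, were present in every library. The 7 genes of type a summed to 1190, 1073 and 1258 CPM (read counts scaled to a common library size with TMM factors) in pah1Δ, 2013, 1881 and 1806 CPM in dgk1Δ and 2059, 2024 and 2083 CPM in WT. The 4 genes of type alpha summed to 69.7, 65.1 and 74.2 CPM in pah1Δ, 53.3, 57.0 and 51.4 CPM in dgk1Δ and 43.3, 54.6 and 49.4 CPM in WT. Their part in the results below was not tested.

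Outside the segments, 1127 genes were higher in pah1Δ than in dgk1Δ (18.7% of genes tested) and 917 were lower (15.2%), at an edgeR adjusted p under 0.05. In all, 34.0% of genes were called, and in 47.9% the libraries of the 2 strains did not overlap. These shares of 18.7% higher and 15.2% lower are the background for each count of list members below. Most differences were small. The median log2 fold change, pah1Δ over dgk1Δ, was 0.52 among genes called higher and -0.35 among genes called lower. A fold of at least 2 was reached by 203 genes called higher (3.37%) and 31 called lower (0.515%), and a fold of at least 4 by 19 and 9. Leaving out pah1Δ replicate 1 brought the genes called lower to 538, and leaving out dgk1Δ replicate 1 to 599. The share of calls that were higher, 55.1%, was 69.3% when libraries were scaled by total count only, a scaling that set the median of all genes at 0.073, and 70.4% in limma on log2(FPKM + 1). Of the called genes, 302 overlap another gene, and the library protocol names no step that keeps strand, so such genes are uncertain and are marked as overlapping below. A near-identical copy exists for 81, whose reads may have been split or lost.

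**Figure D1:**
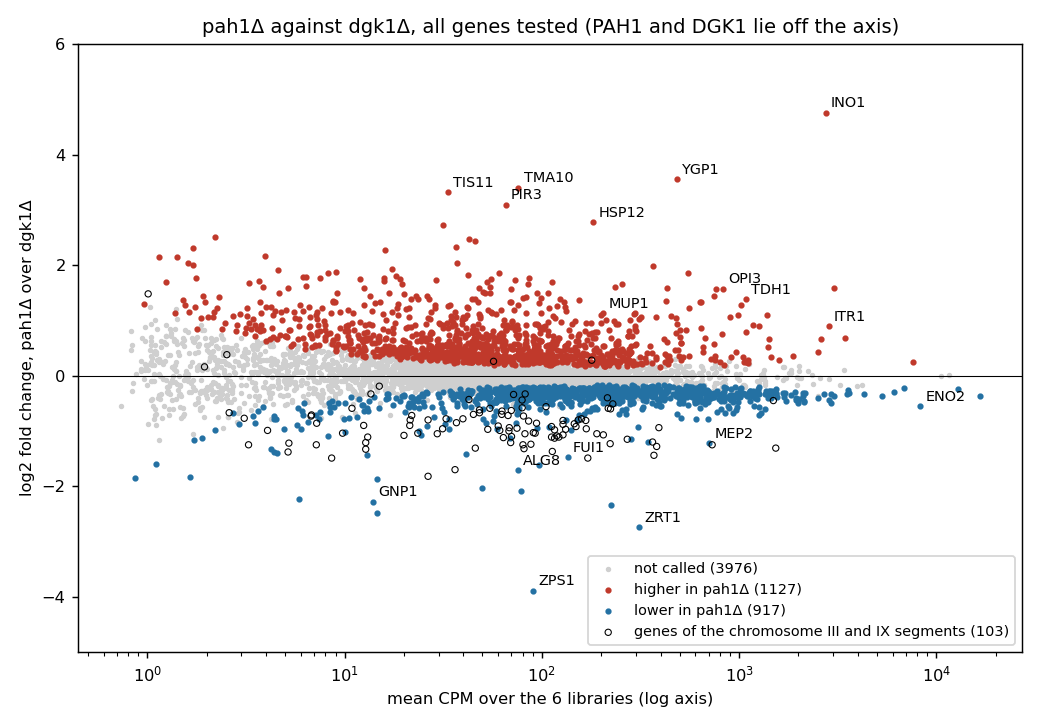
Each point is 1 of the 6123 tested genes, with its mean level over the 6 libraries in CPM (log axis) on the x axis and its log2 fold change, pah1Δ over dgk1Δ, on the y axis. Red and blue points are the 1127 genes called higher and the 917 called lower in pah1Δ, and open circles are the 103 genes of the 2 segments, most of which lie below 0. INO1 stands highest and ZPS1 lowest among the genes on the axis.

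The gene with the largest rise in pah1Δ, besides DGK1 itself, was INO1, which encodes the synthase that makes inositol 3-phosphate, the first step of inositol synthesis. Its level was 5322, 5119 and 5439 CPM in pah1Δ, against 355, 80.4 and 154 CPM in dgk1Δ and 172, 230 and 336 CPM in WT. The pah1Δ libraries lay far above all others, and the dgk1Δ and WT ranges overlapped. The log2 fold change was 4.76 (SE 0.559, edgeR adjusted p = 0.00109). OPI3, the methyltransferase of the last steps to phosphatidylcholine, had 1206, 1315 and 1207 CPM in pah1Δ, against 558, 295 and 407 CPM in dgk1Δ and 745, 459 and 593 CPM in WT (1.57, SE 0.180, edgeR adjusted p = 0.000114). CHO2, which carries out the first methylation of the same route, had 823, 845 and 815 CPM in pah1Δ, 594, 436 and 511 CPM in dgk1Δ and 649, 659 and 691 CPM in WT (0.69, SE 0.0987, edgeR adjusted p = 0.000482). For CHO2 the WT libraries lay between the strains, above every dgk1Δ library and below every pah1Δ library.

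The inositol-responsive element was sought as its core CATGTG, on both strands, in the 300 bases before each gene's annotated start. Of the 19 genes of the inositol and choline list, 14 held it (73.7%), against 7.16% of 6018 genes outside the segments. It was in 113 of the 1127 windows of genes called higher and 44 of the 917 of genes called lower. The list was drawn up from genes known for this element, so the share describes the list and does not test it. Element shares of the lists below are likewise descriptions and no tests. The windows of INO1, OPI3 and PSD1, shown here as 3 of the members that were called higher and hold more than 1 core, are at chrX:135934-136233, chrX:572936-573235 and chrXIV:317672-317971. They are all on the minus strand of build R64, which is the genome of another laboratory strain than CEN.PK. They run 5′ to 3′ toward the gene, with each core in capitals.
INO1: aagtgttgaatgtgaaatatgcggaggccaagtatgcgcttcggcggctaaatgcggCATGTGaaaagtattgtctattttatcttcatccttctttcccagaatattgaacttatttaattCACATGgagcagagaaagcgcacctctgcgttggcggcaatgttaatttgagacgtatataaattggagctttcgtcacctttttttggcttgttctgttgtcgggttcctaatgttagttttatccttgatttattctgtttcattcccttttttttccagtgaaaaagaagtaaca
OPI3: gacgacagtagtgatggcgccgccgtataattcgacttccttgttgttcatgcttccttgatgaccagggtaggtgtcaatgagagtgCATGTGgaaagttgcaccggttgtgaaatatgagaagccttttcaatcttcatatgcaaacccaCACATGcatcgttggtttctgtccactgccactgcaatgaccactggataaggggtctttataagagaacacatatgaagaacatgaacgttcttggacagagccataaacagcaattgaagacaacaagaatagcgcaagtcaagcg
PSD1: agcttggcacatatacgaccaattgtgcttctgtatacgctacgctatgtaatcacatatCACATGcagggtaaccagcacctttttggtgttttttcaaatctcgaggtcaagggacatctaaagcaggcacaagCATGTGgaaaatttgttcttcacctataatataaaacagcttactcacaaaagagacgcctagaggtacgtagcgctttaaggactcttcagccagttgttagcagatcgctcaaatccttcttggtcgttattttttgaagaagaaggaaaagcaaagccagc
The INO1 window held cores beginning 243 and 178 bases before the gene, the OPI3 window 212 and 148 bases before it, and the PSD1 window 240 and 164 bases before it.

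Across the list, 12 of 19 members were higher in pah1Δ, 1 was lower and 6 did not pass, with a median log2 fold change of 0.37 against 0.01 over all tested genes. The inositol transporter gene ITR1 had 3748, 3474 and 3854 CPM in pah1Δ, 2453, 1616 and 1886 CPM in dgk1Δ and 2457, 2521 and 2967 CPM in WT (0.90, SE 0.131, edgeR adjusted p = 0.000543). PSD1, the mitochondrial phosphatidylserine decarboxylase gene, which overlaps YNL170W, had 358, 365 and 338 CPM in pah1Δ, 250, 161 and 194 CPM in dgk1Δ and 257, 264 and 310 CPM in WT (0.81, edgeR adjusted p = 0.000972). INO4, a subunit of the activator, had 71.5, 75.2 and 61.6 CPM in pah1Δ, 45.6, 39.2 and 42.0 CPM in dgk1Δ and 58.2, 48.8 and 51.4 CPM in WT (0.72, edgeR adjusted p = 0.000271). All 3 of these genes had WT libraries between the strains. Its partner INO2 was higher by 0.28 (edgeR adjusted p = 0.0409), a call lost in 6 alternatives, and the repressor gene OPI1 by 0.37 (0.0340), lost in 4. CHO1, the phosphatidylserine synthase gene, was higher by 0.70 (edgeR adjusted p = 0.00537, but 0.124 without pah1Δ replicate 2). The choline kinase gene CKI1 (0.47) and EPT1, which joins ethanolamine to diacylglycerol (0.38), were also higher. So was CDS1, which makes CDP-diacylglycerol (0.33), though it lost its call in 3 alternatives. Mean levels in pah1Δ, dgk1Δ and WT were 351, 280 and 356 CPM for CDS1 and 112, 87.2 and 112 CPM for OPI1. For INO2 they were 72.4, 59.6 and 75.0 CPM. In CDS1, OPI1 and INO2 the WT mean was thus near that of pah1Δ and above that of dgk1Δ. The WT mean lay between those of the strains for CHO1 (621, 384 and 499 CPM) and CKI1 (151, 110 and 137 CPM). It also did for EPT1 (204, 157 and 184 CPM). PCT1, the regulated enzyme of the CDP-choline route, was lower by 0.29 (edgeR adjusted p = 0.0128), and this call was lost without pah1Δ replicate 1 (0.0583) and under a replicate block (0.0551).

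The members that did not pass were HNM1 (0.01), the choline transporter gene, PSD2 (0.10), PIS1 (-0.18), EKI1 (0.22), ECT1 (-0.05) and CPT1 (0.15). HNM1 had 568, 511 and 590 CPM in pah1Δ, 622, 498 and 542 CPM in dgk1Δ and 710, 707 and 766 CPM in WT. Every WT library thus lay above every library of both deletion strains for HNM1. The dgk1Δ libraries were not equal in this list. Replicate 1 of dgk1Δ was the highest of its strain for all 12 members called higher, and replicate 2 the lowest for 11 of them. The median deviation of the list was 0.19, -0.13 and -0.03 in dgk1Δ replicates 1 to 3 on the log2 scale, against 0.39, 0.33 and 0.38 in pah1Δ. For 14 of the 19 members the pah1Δ and dgk1Δ libraries did not overlap, a larger share than the 47.9% of all genes tested.

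**Figure D2:**
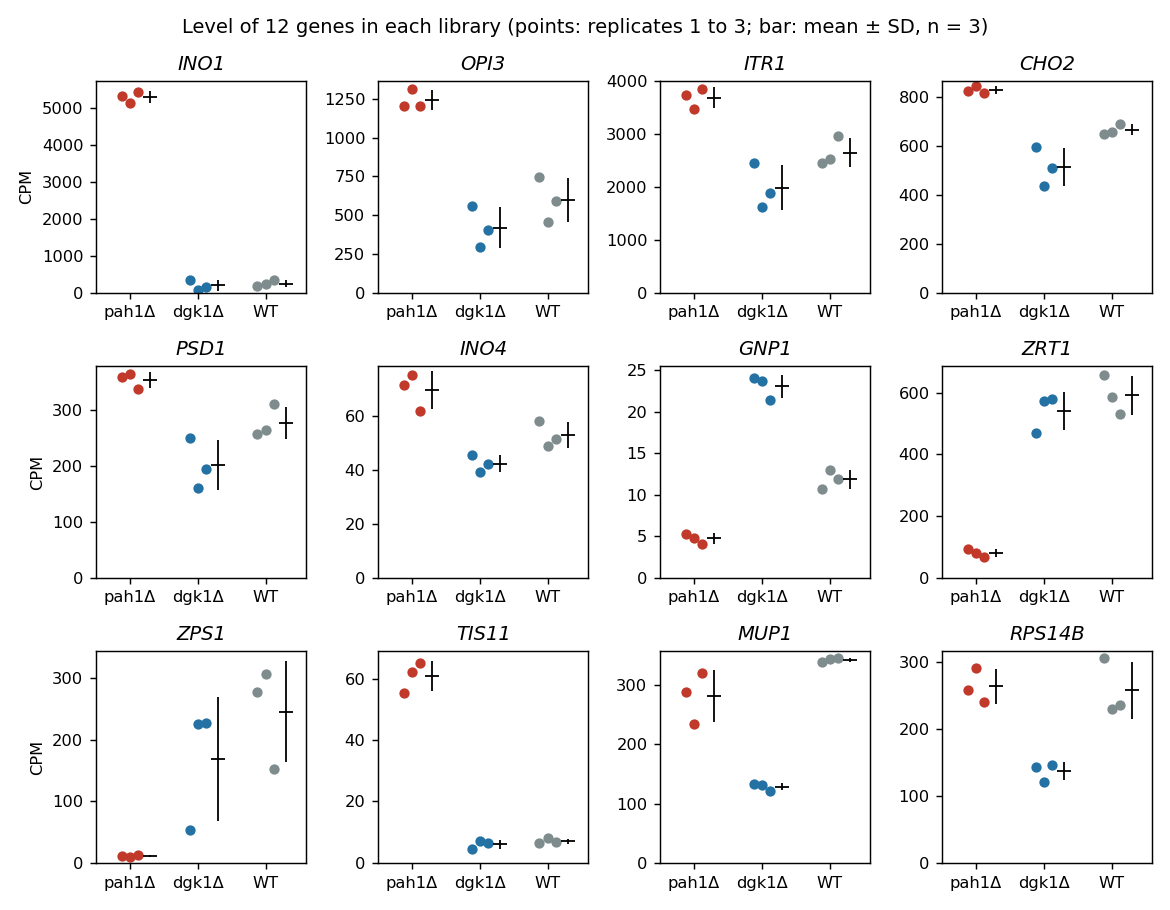
The level of 12 genes in CPM on the y axis, which starts at 0, is shown for each library of pah1Δ (red), dgk1Δ (blue) and WT (grey), with the mean and SD of each strain (n = 3) as a bar. INO1 and TIS11 are high in pah1Δ alone, ZRT1 is low in pah1Δ alone, WT lies between the strains for ITR1, CHO2, PSD1, INO4 and GNP1, and MUP1 and RPS14B are low in dgk1Δ.

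Genes that handle phosphatidate, diacylglycerol and storage lipid showed no common direction. Of 30 tested members, 9 were higher (30.0%, against 18.7% of all) and 4 lower (13.3%, against 15.2%), with a median log2 fold change of 0.02. Those higher in pah1Δ included NEM1, the catalytic subunit of the phosphatase that activates Pah1, which had 66.2, 68.4 and 69.1 CPM in pah1Δ, 43.9, 40.2 and 40.0 CPM in dgk1Δ and 45.4, 48.0 and 52.0 CPM in WT (0.72, SE 0.0735, edgeR adjusted p = 5.07e-05). Its regulatory partner SPO7, chosen after its values were seen, did not pass (0.02, edgeR adjusted p = 0.895). PET10, a lipid droplet coat protein gene, had 581, 628 and 603 CPM in pah1Δ, 339, 362 and 359 CPM in dgk1Δ and 453, 385 and 376 CPM in WT (0.77, edgeR adjusted p = 9.03e-06). Both genes of the yeast FIT family of droplet-forming proteins, SCS3 (0.74) and YFT2 (0.59), were higher. So were ICT1, encoding a lysophosphatidate acyltransferase (0.99), and DGA1, the diacylglycerol acyltransferase gene (0.46, chosen after its values were seen). The members lower in pah1Δ, also given after their values were seen, were the sterol acyltransferase gene ARE1 (-0.57), the glycerol 3-phosphate acyltransferase gene SCT1 (-0.41), the phosphatase gene DPP1 (-0.36) and the lysophospholipid acyltransferase gene ALE1 (-0.23).

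Of 10 tested genes of phospholipid breakdown and of the deacylated products, 5 were higher and 2 lower. GPC1, which acylates glycerophosphocholine, had 174, 149 and 173 CPM in pah1Δ, 98.0, 76.3 and 77.6 CPM in dgk1Δ and 83.8, 90.4 and 95.5 CPM in WT (0.98, edgeR adjusted p = 7.88e-05). The glycerophosphocholine phosphodiesterase gene GDE1 (0.64) and the phospholipase B gene PLB3 (0.52) were higher. PLB2, a second phospholipase B gene, had 43.8, 40.3 and 45.0 CPM in pah1Δ, 95.2, 91.9 and 97.0 CPM in dgk1Δ and 87.6, 102 and 111 CPM in WT (-1.13, edgeR adjusted p = 2.97e-06). NTE1, which deacylates phosphatidylcholine, was lower by 0.48.

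In fatty acid synthesis, 2 of 16 tested members were higher and 4 lower, and the median of -0.03 took the other sign under several alternatives. FAA4, an acyl-CoA synthetase gene, had 163, 171 and 193 CPM in pah1Δ, 363, 396 and 402 CPM in dgk1Δ and 334, 388 and 410 CPM in WT (-1.14, SE 0.0770, edgeR adjusted p = 3.44e-06). OLE1, the only fatty acid desaturase gene of yeast, had 948, 1036 and 1084 CPM in pah1Δ, 1296, 1619 and 1621 CPM in dgk1Δ and 1126, 1418 and 1325 CPM in WT (-0.56, edgeR adjusted p = 0.00138). FAS2, which encodes the alpha subunit of fatty acid synthase, was higher (0.35). FAS1, for the other subunit and given after its values were seen, did not pass (-0.08, edgeR adjusted p = 0.464). Of 25 tested ergosterol genes, 8 were higher and 1 lower, all by less than 0.5, with ERG27 (overlapping YLR101C) at 0.43 and ERG20, the farnesyl diphosphate synthase gene, at 0.34.

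Of 24 tested sphingolipid genes, 11 were higher (45.8%, against 18.7% of all) and 5 lower (20.8%, against 15.2%). ORM2, which restrains the first enzyme of the pathway, had 182, 157 and 192 CPM in pah1Δ, 101, 98.8 and 98.8 CPM in dgk1Δ and 115, 106 and 101 CPM in WT (0.83, SE 0.0829, edgeR adjusted p = 4.27e-05). Its paralog ORM1, given after its values were seen, was lower by 0.21. YSR3, a long-chain base phosphate phosphatase gene (1.16), the ceramidase gene YPC1 (0.50) and CSG2 (0.41), needed for mannosylation of the head group, were higher, and TSC10, the ketosphinganine reductase gene, was lower by 0.49.

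Genes of the unfolded protein response of the endoplasmic reticulum were higher in 13 of 23 tested members and lower in 0, with a median of 0.36. KAR2, the lumenal Hsp70 gene, had 1433, 1412 and 1288 CPM in pah1Δ, 775, 797 and 824 CPM in dgk1Δ and 650, 716 and 633 CPM in WT (0.79, SE 0.0666, edgeR adjusted p = 1.37e-05). All WT libraries lay below all dgk1Δ libraries for this gene. ERO1, the oxidase of disulfide formation, was higher by 0.82 and HAC1, the transcription factor of the response, by 0.94. HAC1 overlaps YFL031C-A and YFL032W. The core CAGCGTG of the response element was in only 2 of this list's 23 windows (8.70%) and in 78 of all 6018 (1.30%). It was in 18 of the 1127 of genes called higher and 8 of the 917 of genes called lower. Assembly genes of the N-linked glycan moved little (2 of 25 higher, 2 lower), except ALG8, a glucosyltransferase gene, with 35.8, 32.7 and 37.3 CPM in pah1Δ, 112, 122 and 113 CPM in dgk1Δ and 102, 127 and 116 CPM in WT (-1.71, SE 0.0814, edgeR adjusted p = 5.89e-07).

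All 39 tested genes of the general stress list outside the segments were higher in pah1Δ, with a median log2 fold change of 1.16 and a range that began at 0.25. The list was chosen with earlier results of these data known, so this count is no independent support. Their summed level was 7787, 8540 and 8112 CPM in pah1Δ, 3711, 3718 and 3737 CPM in dgk1Δ and 3410, 3234 and 3101 CPM in WT. HSP12, a small heat shock protein gene, had 277, 430 and 248 CPM in pah1Δ, 54.5, 38.6 and 46.0 CPM in dgk1Δ and 59.5, 28.9 and 24.8 CPM in WT (2.78, SE 0.202, edgeR adjusted p = 5.42e-06). The pah1Δ libraries lay above all others, and pah1Δ replicate 2 was the highest of them. TMA10, whose product associates with ribosomes, had 125, 147 and 143 CPM in pah1Δ, 11.2, 13.9 and 14.2 CPM in dgk1Δ and 14.1, 10.7 and 9.0 CPM in WT (3.40, SE 0.109, edgeR adjusted p = 8.28e-08). YGP1, a secreted glycoprotein gene, had 762, 829 and 1076 CPM in pah1Δ, 76.4, 80.9 and 70.4 CPM in dgk1Δ and 64.8, 66.0 and 69.2 CPM in WT (3.55, SE 0.131, edgeR adjusted p = 2.36e-07).

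The stress response element, searched as AGGGG on both strands, was in 82.1% of the windows of the general stress list, 35.9% of those of genes called higher, 14.5% of those of genes called lower and 22.2% of all 6018. The list was drawn up from targets of the stress regulators Msn2 and Msn4, so its share describes the list and does not test it. DDR2, a stress-induced gene with 72.1, 91.7 and 68.0 CPM in pah1Δ, 13.1, 15.6 and 14.2 CPM in dgk1Δ and 15.5, 8.93 and 9.33 CPM in WT (2.43, edgeR adjusted p = 8.98e-07), held 3 matches. The window at chrXV:231756-232055, minus strand, is shown as the one with the most matches among those examined, in capitals on the strand read.
DDR2: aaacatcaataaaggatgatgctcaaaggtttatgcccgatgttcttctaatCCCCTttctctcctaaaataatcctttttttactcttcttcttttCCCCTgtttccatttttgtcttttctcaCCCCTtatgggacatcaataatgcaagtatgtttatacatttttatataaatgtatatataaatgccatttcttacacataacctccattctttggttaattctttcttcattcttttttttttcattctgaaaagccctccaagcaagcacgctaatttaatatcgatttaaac
No match was in the windows of TMA10 and YGP1, which says only that these letters are not within 300 bases of the start.

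Stationary-phase genes were higher in 15 of 18 tested members (median 1.12) and genes of glycogen and trehalose in 11 of 20 (median 0.34), with 0 lower in either. The glycogen phosphorylase gene GPH1, which overlaps YPR160C-A and YPR160W-A, had 56.5, 64.3 and 57.7 CPM in pah1Δ, 16.5, 12.7 and 14.6 CPM in dgk1Δ and 17.5, 15.4 and 11.3 CPM in WT (2.03, edgeR adjusted p = 8.98e-07). The trehalose genes TSL1 (1.33), NTH1 (0.95) and TPS1 (0.69) were higher. NQM1, a transaldolase gene, was higher by 2.73 and GPG1 by 2.48. Autophagy genes were higher in 13 of 25 and lower in 0, with ATG8, the ubiquitin-like protein of the growing membrane, at 54.8, 59.1 and 47.4 CPM in pah1Δ, 23.5, 24.2 and 29.7 CPM in dgk1Δ and 24.8, 24.6 and 19.9 CPM in WT (1.06, edgeR adjusted p = 6.79e-05).

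Of 24 tested genes tied to the cell wall and its integrity pathway, 15 were higher and 2 lower, with a median of 0.81. PIR3, a covalently bound wall protein gene, had 105, 113 and 135 CPM in pah1Δ, 12.7, 16.1 and 12.3 CPM in dgk1Δ and 12.2, 10.7 and 10.4 CPM in WT (3.09, SE 0.132, edgeR adjusted p = 3.66e-07). NCW2, another wall protein gene, had 833, 821 and 943 CPM in pah1Δ, 227, 254 and 233 CPM in dgk1Δ and 241, 233 and 223 CPM in WT (1.86). The yapsin protease gene YPS3 (1.65, overlapping YLR120W-A), PST1 (1.45) and the kinase-related KDX1 (1.34) were higher. WSC4, of the Wsc family of membrane proteins, went the other way, with 49.7, 36.1 and 56.7 CPM in pah1Δ, 150, 151 and 138 CPM in dgk1Δ and 106, 135 and 136 CPM in WT (-1.62, SE 0.138, edgeR adjusted p = 1.38e-05). CCW22, also a wall protein gene and overlapping YDR133C, was lower by 2.09.

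Chaperone genes driven by the heat shock factor were higher in 12 and lower in 3 of 25. HSP42 (1.65), SSE2 (1.27), BTN2 (1.18), HSP104 (1.07) and HSP82 (1.05) were higher, and for each of these the WT libraries lay below all dgk1Δ libraries. SSA2, an Hsp70 gene with a near-identical copy in SSA1 and named after its values were seen, was lower by 0.49. Antioxidant genes were higher in 11 and lower in 1 of 23, with the mitochondrial peroxiredoxin gene PRX1 at 157, 203 and 145 CPM in pah1Δ, 71.5, 68.8 and 69.7 CPM in dgk1Δ and 70.1, 48.6 and 49.8 CPM in WT (1.26) and the catalase gene CTT1 higher by 1.22.

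**Figure D3:**
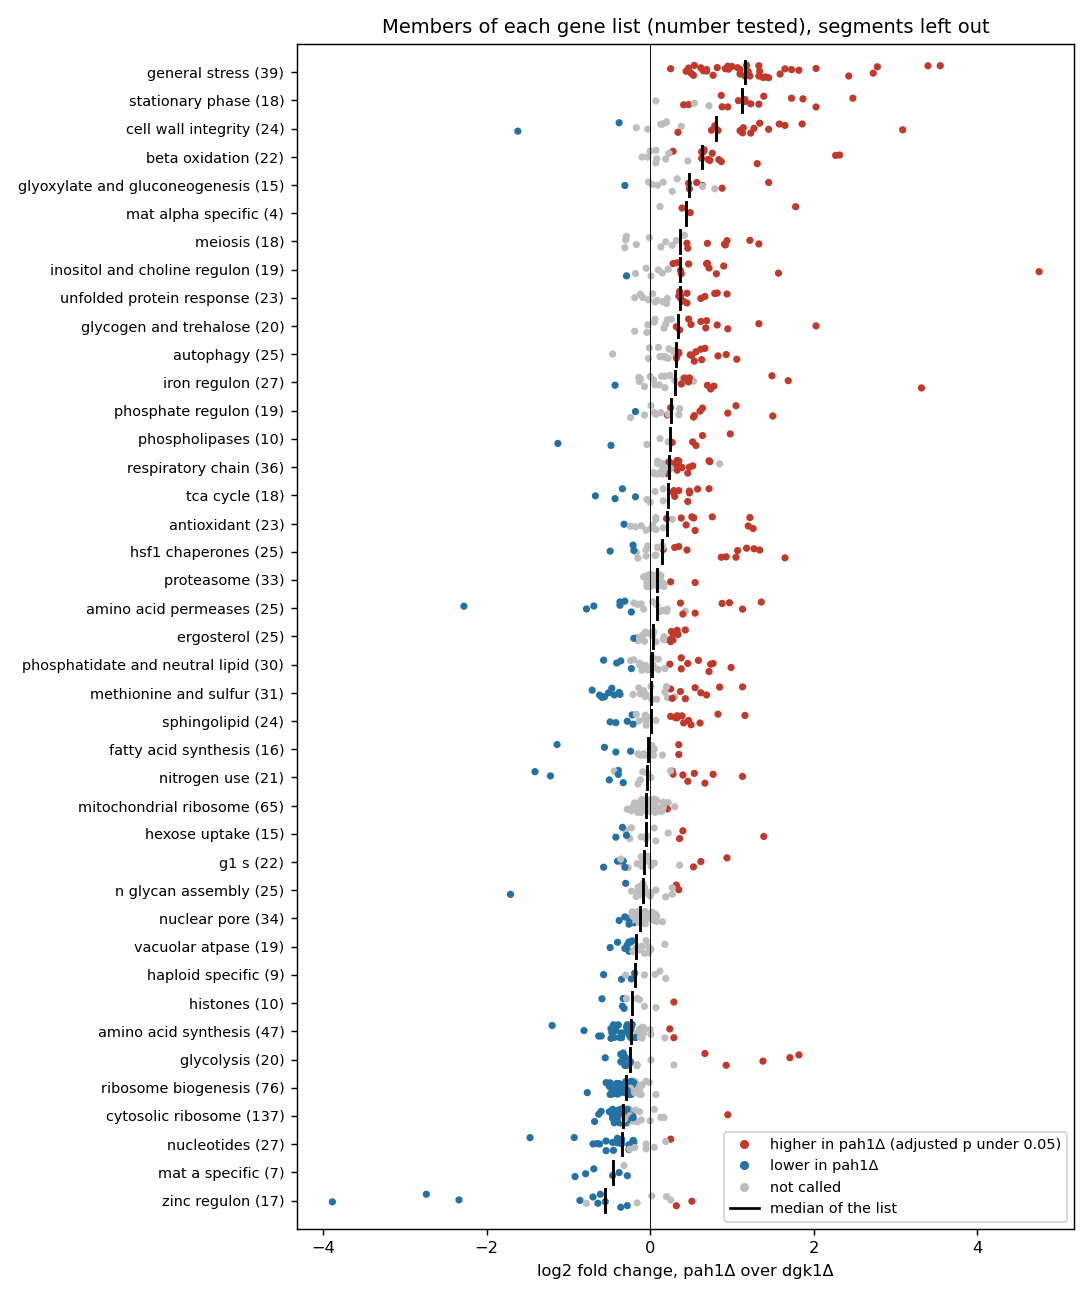
Each row is 1 of 41 gene lists with its number of tested members outside the segments, the x axis is the log2 fold change of each member, pah1Δ over dgk1Δ, and the black bar is the list's median. The general stress list, with a median of 1.16 and all 39 members higher, is at the top, and the zinc list, with a median of -0.55, at the bottom. The lists were chosen with earlier results of these data known. The heights of points within a row carry no value.

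Peroxisomal beta-oxidation genes were higher in 13 of 22 and lower in 0 (median 0.63). POX1, the acyl-CoA oxidase gene, had 56.4, 59.9 and 67.7 CPM in pah1Δ, 13.2, 13.2 and 10.2 CPM in dgk1Δ and 12.1, 15.8 and 10.4 CPM in WT (2.32, SE 0.120, edgeR adjusted p = 8.46e-07). The thiolase gene POT1 had 23.1, 32.6 and 23.9 CPM in pah1Δ, 5.85, 6.11 and 4.29 CPM in dgk1Δ and 6.30, 6.44 and 5.27 CPM in WT (2.27). Of 15 tested genes of the glyoxylate cycle and gluconeogenesis, 6 were higher and 1 lower, with the cytosolic isocitrate dehydrogenase gene IDP2 at 1.45 and ADR1, an activator of nonfermentative genes, at 0.88.

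Of 20 tested glycolytic and fermentation genes, 11 were lower and 5 higher. TDH1, one of the glyceraldehyde 3-phosphate dehydrogenase genes, had 1481, 1500 and 1699 CPM in pah1Δ, 538, 603 and 653 CPM in dgk1Δ and 726, 568 and 581 CPM in WT (1.38, SE 0.0882, edgeR adjusted p = 2.48e-06). TDH2 and TDH3, near-identical to each other and given after their values were seen, were lower by 0.36 each (edgeR adjusted p = 0.00260 and 0.00274, and 0.0951 for TDH3 with all 9 libraries in the fit). ENO1, an enolase gene, had 3127, 3194 and 3285 CPM in pah1Δ, 1875, 2008 and 2150 CPM in dgk1Δ and 2389, 1889 and 1934 CPM in WT (0.67). Its paralog ENO2 had 6908, 6579 and 6672 CPM in pah1Δ, 9534, 9446 and 10482 CPM in dgk1Δ and 11763, 8803 and 9270 CPM in WT (-0.55, edgeR adjusted p = 0.000189). The hexokinase gene HXK1 (1.82, overlapping YFR052C-A) and the pyruvate decarboxylase gene PDC6 (1.71) were higher. PDC1, the main decarboxylase gene, chosen after its values were seen, did not pass (0.01, edgeR adjusted p = 0.912).

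Of 36 tested respiratory chain genes, 18 were higher and 0 lower, with a median of 0.23. NDE1, the external NADH dehydrogenase gene, was higher by 0.52, and the succinate dehydrogenase genes SDH4 (0.72), SDH1 (0.48), SDH2 (0.46) and SDH3 (0.35) were higher. In the citric acid cycle, 9 of 18 were higher and 4 lower, the lower ones including the aconitase gene ACO1 (767, 694 and 690 CPM in pah1Δ, 1166, 1179 and 1089 CPM in dgk1Δ and 966, 1033 and 950 CPM in WT; -0.67). Among 15 hexose uptake and glucose signalling genes, 3 were higher and 3 lower, with HXT5 at 38.7, 39.3 and 38.2 CPM in pah1Δ, 15.4, 16.3 and 12.5 CPM in dgk1Δ and 11.3, 13.0 and 11.9 CPM in WT (1.39).

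The zinc list stood lowest. Of 17 tested members, 10 were lower and 2 higher. ZRT1, the high-affinity zinc transporter gene, had 93.8, 81.4 and 67.2 CPM in pah1Δ, 468, 573 and 578 CPM in dgk1Δ and 656, 587 and 529 CPM in WT (-2.74, SE 0.126, edgeR adjusted p = 5.6e-07). Every pah1Δ library lay below every library of the other strains. ZPS1, a zinc-regulated cell surface protein gene, had 11.5, 10.1 and 12.3 CPM in pah1Δ, 53.1, 226 and 227 CPM in dgk1Δ and 277, 307 and 152 CPM in WT (-3.89, SE 0.616, edgeR adjusted p = 0.00401). ADH4, an alcohol dehydrogenase gene, had 71.9, 71.0 and 78.0 CPM in pah1Δ, 154, 497 and 467 CPM in dgk1Δ and 570, 615 and 414 CPM in WT (-2.34, SE 0.436, edgeR adjusted p = 0.00773). For ZPS1 and ADH4, dgk1Δ replicate 1 lay well below its partners, and the calls were lost without pah1Δ replicate 2 (0.0696 and 0.0906) or replicate 3 (0.0671 and 0.0893). ZAP1, the activator of these genes, was lower by 0.86, the vacuolar zinc transporter gene ZRC1 by 0.55 and FET4, a low-affinity metal transporter gene, by 0.64. The members that were higher were TSA1, a peroxiredoxin gene (0.51), and MCD4, of glycolipid anchor synthesis (0.32, named after its values were seen).

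The zinc-responsive element, searched as ACCTT and AAGGT separated by any 1 base, was in 3 of the 17 windows of the zinc list (17.6%). It was in 5 of all 6018 (0.0831%), in 2 of the 1127 of genes called higher (0.177%) and in 1 of the 917 of genes called lower (0.109%). That 1 was ZRT1, so no other gene called lower held the element. The list was drawn up from targets of Zap1, so its share describes the list and does not test it. The ZRT1 window, chrVII:20678-20977 on the plus strand, is shown because ZRT1 was the transporter of the list with the largest fall.
ZRT1: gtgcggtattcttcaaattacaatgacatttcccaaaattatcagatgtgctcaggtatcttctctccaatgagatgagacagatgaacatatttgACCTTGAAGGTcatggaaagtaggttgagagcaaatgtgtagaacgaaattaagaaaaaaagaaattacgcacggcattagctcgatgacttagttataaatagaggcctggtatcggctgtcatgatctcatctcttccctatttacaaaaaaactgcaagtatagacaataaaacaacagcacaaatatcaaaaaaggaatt
The match begins 204 bases before the gene. The windows of ZPS1 and ADH4 held none.

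Iron genes moved unevenly: 10 of 27 were higher and 1 lower, with a median of 0.30. TIS11, whose product binds and destabilises messenger RNA when iron is scarce, had 55.4, 62.1 and 65.1 CPM in pah1Δ, 4.46, 7.29 and 6.34 CPM in dgk1Δ and 6.56, 7.99 and 6.69 CPM in WT (3.32, SE 0.146, edgeR adjusted p = 3.99e-07). ARN1, a siderophore transporter gene, had 170, 158 and 183 CPM in pah1Δ, 49.3, 55.9 and 53.8 CPM in dgk1Δ and 60.2, 81.6 and 72.1 CPM in WT (1.69, SE 0.0834, edgeR adjusted p = 6.47e-07). HMX1, the haem oxygenase gene, had 129, 137 and 152 CPM in pah1Δ, 49.4, 52.2 and 47.3 CPM in dgk1Δ and 69.5, 60.6 and 74.5 CPM in WT (1.49). For ARN1 and HMX1 all WT libraries lay between the strains. The reductase genes FRE3 (0.78) and FRE1 (0.74) were higher. The high-affinity uptake pair, given after their values were seen, did not share this direction: the permease gene FTR1 was lower by 0.43 (edgeR adjusted p = 0.00184), and the oxidase gene FET3 did not pass (-0.14, edgeR adjusted p = 0.286).

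The core TGCACCC of the site of the iron regulator Aft1, searched on both strands, was in 55.6% of the iron list's windows, 1.69% of those of genes called higher, 1.31% of those of genes called lower and 1.33% of all. The iron list was drawn up from targets of Aft1 and Aft2, so its share describes the list. The window of TIS11, the member with the largest rise, is at chrXII:416659-416958 on the minus strand, with matches in capitals beginning 249 and 173 bases before the gene.
TIS11: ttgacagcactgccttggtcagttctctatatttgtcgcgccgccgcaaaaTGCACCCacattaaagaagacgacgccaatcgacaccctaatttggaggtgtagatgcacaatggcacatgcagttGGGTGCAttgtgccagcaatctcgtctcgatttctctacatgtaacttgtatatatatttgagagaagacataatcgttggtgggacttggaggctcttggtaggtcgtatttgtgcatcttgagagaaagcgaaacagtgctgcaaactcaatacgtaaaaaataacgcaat
Phosphate genes were higher in 9 of 19 and lower in 1. PHM8, a nucleotidase gene, had 78.4, 88.4 and 73.9 CPM in pah1Δ, 28.1, 27.4 and 29.6 CPM in dgk1Δ and 21.2, 19.1 and 23.5 CPM in WT (1.50), and the transporter gene PHO84 was higher by 1.05. The site CACGTG of their activator Pho4 was in 36.8% of the phosphate windows, 3.37% of those of genes called higher, 3.60% of those of genes called lower and 3.42% of all. The phosphate list was likewise drawn up from targets of Pho4.

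GNP1, the high-affinity glutamine permease gene, was among the largest falls. It had 5.28, 4.84 and 4.08 CPM in pah1Δ, 24.0, 23.7 and 21.4 CPM in dgk1Δ and 10.7, 13.0 and 11.9 CPM in WT (-2.28, SE 0.135, edgeR adjusted p = 1.53e-06). All WT libraries lay between the strains, and GNP1 overlaps YDR509W. Of 25 tested permease genes and their regulators, 7 were higher and 7 lower (28.0% each, against 18.7% and 15.2% of all). GNP1 thus moved within a list of no common direction. The general permease gene GAP1 had 219, 183 and 207 CPM in pah1Δ, 328, 331 and 328 CPM in dgk1Δ and 383, 363 and 353 CPM in WT (-0.69). The branched-chain permease gene BAP2 had 96.3, 85.8 and 90.5 CPM in pah1Δ, 47.9, 48.4 and 51.6 CPM in dgk1Δ and 40.6, 48.6 and 46.6 CPM in WT (0.88, SE 0.0763, edgeR adjusted p = 1.59e-05). Named after their values were seen, BAP3 (1.36) and AGP3 (0.97) were higher and TAT1 (-0.78) was lower.

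Of 21 genes of nitrogen use, 8 were higher (38.1%, against 18.7% of all) and 6 lower (28.6%, against 15.2%). MEP2, the high-affinity ammonium permease gene, had 477, 356 and 437 CPM in pah1Δ, 1013, 963 and 977 CPM in dgk1Δ and 1008, 957 and 949 CPM in WT (-1.22, edgeR adjusted p = 1.17e-05). ATO3, an ammonium export gene, had 21.7, 22.4 and 23.8 CPM in pah1Δ, 58.7, 55.8 and 66.6 CPM in dgk1Δ and 74.4, 56.4 and 58.9 CPM in WT (-1.41). GDH1, the main glutamate dehydrogenase gene, was lower by 0.50, with WT between the strains. The arginine breakdown genes CAR2 (1.13, overlapping YLR437C-A) and CAR1 (0.77) were higher, while in arginine synthesis ARG3, the ornithine carbamoyltransferase gene, had 235, 190 and 207 CPM in pah1Δ, 475, 479 and 499 CPM in dgk1Δ and 534, 481 and 485 CPM in WT (-1.20, SE 0.0818, edgeR adjusted p = 3.64e-06).

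Amino acid synthesis genes were lower in 31 of 47 and higher in 2 (median -0.24), LEU9 (-0.81, overlapping YOR108C-A), ARG8 (-0.63), LEU1 (-0.60) and HOM2 (-0.48) among them. The core TGACTC of the site of the activator Gcn4 was in 70.2% of these windows, 6.83% of those of genes called higher, 10.6% of those of genes called lower and 8.14% of all. The amino acid synthesis list was drawn up from targets of Gcn4, so its share describes the list. Nucleotide genes were lower in 19 of 27 and higher in 1 (median -0.35). FUI1, the uridine permease gene, had 73.2, 66.7 and 74.1 CPM in pah1Δ, 192, 205 and 198 CPM in dgk1Δ and 214, 231 and 211 CPM in WT (-1.47, SE 0.0708, edgeR adjusted p = 5.89e-07). The purine permease gene FCY2 (-0.65) and the IMP dehydrogenase gene IMD3 (-0.70) were lower.

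Of 31 tested sulfur genes, 9 were higher and 9 lower (29.0% each, against 18.7% and 15.2% of all). Those lower included genes for the steps that take sulfate to sulfide. MET16, the phosphoadenylylsulfate reductase gene, had 198, 213 and 196 CPM in pah1Δ, 289, 319 and 324 CPM in dgk1Δ and 327, 308 and 320 CPM in WT (-0.62), MET14, the kinase before it, was lower by 0.47, and MET5 (-0.71), MET3 (-0.59) and MET10 (-0.56), named after their values were seen, were lower. Those higher included genes for methionine uptake and the methyl cycle. MUP1, the high-affinity methionine permease gene, had 289, 235 and 321 CPM in pah1Δ, 133, 131 and 122 CPM in dgk1Δ and 338, 343 and 345 CPM in WT (1.13, SE 0.106, edgeR adjusted p = 2.85e-05). SAM3, the S-adenosylmethionine permease gene, had 184, 192 and 205 CPM in pah1Δ, 124, 132 and 141 CPM in dgk1Δ and 275, 297 and 297 CPM in WT (0.55). The cystathionine beta-lyase gene STR3 (0.85) and, chosen after their values were seen, the synthetase gene SAM2 (0.69), the homocysteine methyltransferase gene MHT1 (0.62), SAH1 of the methyl cycle (0.43) and the permease gene MMP1 (0.37) were higher.

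Genes of the cytosolic ribosome were lower in 108 of 137 and higher in 1, with a median of -0.33. Their summed level was 114497, 132376 and 110586 CPM in pah1Δ, 151287, 143688 and 156639 CPM in dgk1Δ and 194750, 141040 and 149509 CPM in WT. The pah1Δ libraries lay below all others, and 21 of the 137 have a near-identical copy. RPL9A had 626, 726 and 614 CPM in pah1Δ, 1044, 1013 and 1097 CPM in dgk1Δ and 1293, 973 and 1052 CPM in WT (-0.68, SE 0.0754, edgeR adjusted p = 8.5e-05). Ribosome biogenesis genes were lower in 56 of 76 and higher in 0 (median -0.29), with the helicase gene DBP2 at 334, 404 and 389 CPM in pah1Δ, 617, 659 and 640 CPM in dgk1Δ and 737, 728 and 744 CPM in WT (-0.77). The core GATGAG of the element that many of these genes carry was in 89.5% of their windows, 29.8% of those of genes called lower, 12.6% of those of genes called higher and 18.5% of all. Of 65 mitochondrial ribosome genes, 1 was higher and 0 lower, and the 1 call, MRP20, was lost in 9 alternatives. The median deviation of this list from the dgk1Δ mean was -0.07, 0.12 and -0.20 in pah1Δ replicates 1 to 3 on the log2 scale. The pah1Δ libraries thus did not share a direction, and the few calls do not show that the level was stable.

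Proteasome genes were higher in 2 of 33, one being RPN4 (0.55), the transcription factor of that complex, and the other, RPN12 (0.25), lost its call in 4 alternatives. Vacuolar ATPase genes were lower in 8 of 19, nuclear pore genes in 7 of 34 and histone genes in 4 of 10, with 0, 0 and 1 higher, where 15.2% of all genes tested were lower and the nuclear pore share was 20.6%. Many of these calls were not firm: NUP145 lost its call in 10 alternatives, NUP170 and POM152 in 9 each, NUP49 in 3, the histone genes HHT1 in 8 and HHF1 in 7, and HTA1, the histone gene called higher, in 9. Of 18 meiosis genes, 8 were higher and 0 lower. Among 22 genes of the start of the cell cycle, 3 were higher (13.6%, against 18.7% of all) and 4 lower (18.2%, against 15.2%), with the cyclin genes PCL1 (300, 350 and 307 CPM in pah1Δ, 171, 159 and 169 CPM in dgk1Δ and 177, 174 and 177 CPM in WT; 0.94), CLN1 (0.62) and CLN2 (0.53) higher and FAR1, a cyclin kinase inhibitor gene, lower by 0.57. Mating type a genes were lower in 6 of 7, type alpha genes higher in 3 of 4 and haploid-specific genes lower in 4 of 9. Among these, the calls of STE3 and MF(ALPHA)2 were each lost in 7 alternatives, that of HO in 8 and that of GPA1 in 12. The type a receptor gene STE2 had 460, 398 and 477 CPM in pah1Δ, 815, 752 and 741 CPM in dgk1Δ and 772, 833 and 872 CPM in WT (-0.79), and MF(ALPHA)1, a pheromone gene of the other type, had 8.17, 10.1 and 10.1 CPM in pah1Δ, 2.88, 2.43 and 2.96 CPM in dgk1Δ and 2.56, 1.97 and 3.29 CPM in WT (1.78).

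The WT values show on which side each difference lay, as a description without a test. Among 2014 called genes whose pah1Δ and dgk1Δ libraries did not overlap, 1116 were higher in pah1Δ. For 722 of these (64.7%) the WT range overlapped that of dgk1Δ only, and for 50 (4.48%) that of pah1Δ only. It lay between the strains for 48 (4.30%), beyond dgk1Δ for 149 (13.4%) and beyond pah1Δ for 4, and it overlapped both strains for 143 (12.8%). Of the 898 that were lower, WT overlapped dgk1Δ only for 525 (58.5%), both strains for 214 (23.8%) and pah1Δ only for 37 (4.12%), and it lay beyond dgk1Δ for 89 (9.91%), between the strains for 30 (3.34%) and beyond pah1Δ for 3. WT replicate 1 stood apart from its partners (the same chi-square measure was 55.1 and 41.0, and 3.61 between the other WT libraries). Without it, WT lay between the strains for 112 of the genes higher and 98 of those lower in pah1Δ, and beyond dgk1Δ for 323 (28.9%) and 240 (26.7%).

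Genes described above were also among those with WT on the pah1Δ side. MUP1, SAM3 and MMP1 had every WT library above every pah1Δ library, which in turn lay above every dgk1Δ library. MMP1 had 51.6, 48.4 and 54.6 CPM in pah1Δ, 40.3, 38.9 and 40.8 CPM in dgk1Δ and 65.8, 63.6 and 64.6 CPM in WT. MHT1 had mean levels of 31.3, 20.3 and 34.2 CPM in pah1Δ, dgk1Δ and WT, and its WT range overlapped that of pah1Δ only. STR3 had 85.0, 80.8 and 87.3 CPM in pah1Δ, 43.3, 49.5 and 47.6 CPM in dgk1Δ and 64.8, 80.9 and 86.6 CPM in WT. RPS14B, a gene for a protein of the small ribosomal subunit and the 1 cytosolic ribosome gene called higher, had 258, 291 and 240 CPM in pah1Δ, 143, 121 and 146 CPM in dgk1Δ and 306, 230 and 235 CPM in WT (0.95, SE 0.0912, edgeR adjusted p = 3.3e-05). Its paralog RPS14A, chosen after its values were seen, was lower by 0.29 (edgeR adjusted p = 0.0192), a call lost in 9 alternatives. IMD2, an IMP dehydrogenase gene with a near-identical copy in IMD1, had 70.7, 77.9 and 76.8 CPM in pah1Δ, 158, 129 and 142 CPM in dgk1Δ and 73.7, 58.1 and 78.8 CPM in WT (-0.93).

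**Figure D4:**
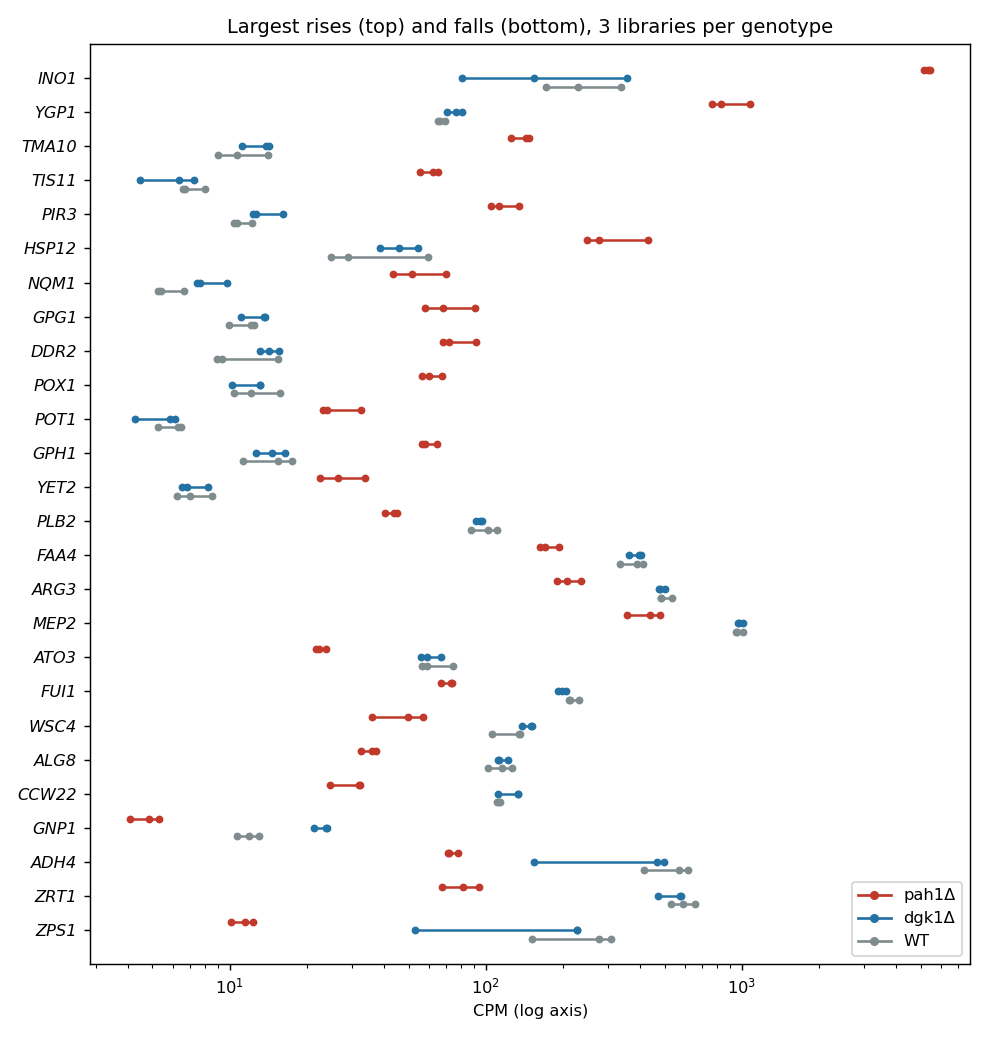
Each row is 1 of the 13 largest rises (top) and 13 largest falls (bottom) in pah1Δ against dgk1Δ, with PAH1 and DGK1 left out, and the x axis is the level in CPM (log axis). Points are libraries and lines their range in pah1Δ (red), dgk1Δ (blue) and WT (grey). The red ranges are apart from the blue in every row, and the grey range touches or passes beyond the blue except for GNP1 and WSC4, where it lies between.

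In the segments kept apart, genes were lower in pah1Δ nearly throughout. On chromosome III, between CHA1 and KCC4, 34 of 41 tested genes were lower and 2 higher, with a median log2 fold change of -0.94. On chromosome IX, from YIL014C-A to the right end, 59 of 62 were lower and 0 higher, with a median of -0.92. The first tested genes inside, CHA1 on III (-1.33) and YIL014C-A on IX (-0.64), and the last inside on III, KCC4 (-1.21), compare with YCL021W-A (-0.34, edgeR adjusted p = 0.101) next to the III segment and BAR1 (-0.46, edgeR adjusted p = 0.00370) next to the IX segment. BAR1, a mating type a gene, is counted outside. Further from the III segment, YCL019W did not pass (-0.71, edgeR adjusted p = 0.0569) and LEU2 was lower (-0.21, edgeR adjusted p = 0.0304). Further from the IX segment, SNL1 did not pass (-0.19, edgeR adjusted p = 0.308) and VID28 was higher (0.43, edgeR adjusted p = 0.00346). These genes are counted outside too. Within the III segment, the amino acid permease gene AGP1 did not pass (0.26, edgeR adjusted p = 0.146) and the glucokinase gene GLK1 was higher. Removing all segment genes before the fit gave 1086 genes higher and 941 lower outside.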

How the data were processed

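Poly(A) RNA was sequenced from 3 genotypes with 3 libraries each, from 2 µg of total RNA, per the labels' protocols. The authors deposited 1 table of raw read counts, whole numbers for each gene and library without normalization, per the file headers. The authors' FPKM values in the same table equalled the count per gene length and per a library total 0.0158% to 0.0225% above the column sum. HISAT2 version 2.2.1, HTSeq version 0.6.1 and build R64 are named in the submitters' processing notes. Which strand setting was used, and how multiply mapped reads were treated, is not stated there. Here, edgeR 4.0.16 (R 4.3.3) was fitted to pah1Δ and dgk1Δ only (6 libraries, TMM, filterByExpr, robust quasi-likelihood test, 4 residual degrees of freedom), with Benjamini-Hochberg adjustment over all 6123 genes tested, segment genes included. Standard errors are the size of the log2 fold change over the root of F. Printed CPM values use TMM factors of all 9 libraries, which moved the median log2 ratio by -0.000975. Fold changes of FPKM values in an alternative are on the log2(FPKM + 1) or log2(FPKM + 0.1) scale. Of the table's gene identifiers, 6045 matched the reference of the same build and 6033 had equal coordinates, so upstream windows of 300 bases were read from it, and 4 empty lines were left out. Near-identical copies are genes that BLAST+ 2.17.0 aligned at 95% identity or more over at least 50% of the gene. The fit was tested on simulated counts.

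Named genes were both deleted genes, INO1, OPI3 and GNP1, the inositol and choline list, and the 14 largest rises and falls among called genes with a standard symbol, a mean of at least 10 CPM and no overlap between strains, PAH1 and DGK1 included. Up to 5 called members of each list were added by smallest adjusted p, with up to 2 more where fewer than 2 were called. The members, the 41 lists and the tests were chosen with earlier results of these data known, so the lists carry no set test and no independent support. Alternatives were other scalings, filters and tools (DESeq2 1.42.0, limma 3.58.1), all 9 libraries in the fit, a replicate block, removal of segment genes or of the length trend, each library left out and stricter calls.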

Additional observations from a re-analysis of the deposited data

How the results depend on the processing

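The 1127 genes called higher and 917 called lower in pah1Δ (34.0% of genes tested) kept within 1.5 times under RLE size factors, no low-count filter, a minimum mean of 10 CPM, removal of the segment genes, DESeq2 and limma-voom. Genes called lower were 576 with all 9 libraries in the fit, 546 with the replicate block, 574 with log2(FPKM + 1) and 573 with log2(FPKM + 0.1). An adjusted p under 0.01 gave 723 higher and 471 lower (19.8% called), and a fold of at least 2 gave 203 and 31 (3.89%). Leaving out each library in turn gave 808 to 1291 genes higher, 538 to 1148 lower and 23.2% to 40.3% called. The replicate numbers did not pair the libraries (same-number correlations -0.00819, -0.541 and -0.424), and the block gave 820 higher. Libraries of unlike number had correlations from -0.239 (pah1Δ 1 with dgk1Δ 3) to 0.524 (pah1Δ 3 with dgk1Δ 2), so some deviations were shared across the strains. DESeq2 gave 1028 higher and 973 lower. No call of a named gene reversed. Of 3774 values of 210 named genes under alternatives, 144 lost a call and 16 gained one, and 29 genes lost a call in at least 1 alternative. Medians of 7 lists, all within 0.05 of 0 (fatty acid synthesis, hexose uptake, methionine and sulfur, mitochondrial ribosome, nitrogen use, phosphatidate and neutral lipid, sphingolipid), changed sign in some alternative. Of 738 list medians, 72 moved by more than their spread between libraries, 20 of them with library size only. The cause of these shifts was not tested. The place of WT among the strains without WT replicate 1 was chosen after seeing the data. The smallest difference that these libraries could show in genes of low count was not measured.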
